A study of Mus musculus with 6 samples.

Results

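The data described here are the transcript levels of 7 mouse genes in Mll-AF9 leukemia: Angptl2, Angptl4, Angptl6 and Angptl7 of the angiopoietin-like family, Pirb and Lilrb4a, which encode receptors on myeloid cells, and Mtor, the gene in which Angptl7 lies. They were picked by name, with their difference between the genotypes known, so that difference is given for them as a description and without a test. All 7 were among the 16656 genes that passed a filter on low counts, out of 29374 with reads. RNA was taken from CD11b+Gr1+ splenocytes, which flow cytometry collected from leukemic mice. There were 3 libraries from Rpl22+/+ and 3 from Rpl22-/- animals, and both groups carried the Mll-AF9 fusion as a knockin. The product of Rpl22 belongs to the large subunit of the ribosome, and the Rpl22-/- animals carried its deletion in the germline. The study used young adult mice on a C57BL/6 background in general and collected leukemic animals on signs of disease or at set times, without an age for these libraries. Nor do the labels say that libraries of the same genotype are different animals. The study's text gives a single animal identifier for each genotype, so the spread between libraries may be technical, and p-values measure only that spread.

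Angiopoietin-like proteins are secreted factors built from a coiled-coil part and, in most members, a fibrinogen-like part that resembles that of the angiopoietins. They act on lipid handling, vessels, inflammation and blood stem cells. Angptl2 and other members bind LILRB2 in humans and its mouse counterpart Pirb, an inhibitory receptor with cytoplasmic ITIM motifs that recruit the phosphatases SHP-1 and SHP-2, and Pirb is known to be expressed on Mll-AF9 leukemia cells. Lilrb4a, also called gp49B, is a second ITIM receptor of mouse myeloid cells. Mtor encodes the kinase of the mTORC1 and mTORC2 complexes, which couple nutrients and growth factors to protein and lipid synthesis.

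The libraries held 35828500 to 102866127 estimated reads. Expression is given as CPM (counts relative to library size, with sizes scaled for composition), or, where genes are compared with each other, as TPM (scaled for transcript length as well). Counting error is all that the intervals on read numbers cover. A gene was called when the edgeR quasi-likelihood test gave an adjusted p-value (Benjamini-Hochberg) below 0.05 with a log2 fold change (Rpl22-/- over Rpl22+/+) beyond 1 in either direction. This rule was met by 17.5% of the tested genes, with 8.93% up and 8.54% down in Rpl22-/-. An adjusted p-value under 0.05 at any fold was reached by 27.6%, and for 46.1% the CPM values of the 2 genotypes did not overlap. The targeted gene Rpl22 measured 148, 235 and 152 CPM in the Rpl22+/+ libraries against 58.3, 89.9 and 73.5 CPM in Rpl22-/-, a 2.41-fold lower level (edgeR adjusted p = 0.0106). Transcript remained, and which exons the deletion removes is not given in the sources used here. Rpl22+/+ replicate 2 stood apart, with correlations of 0.926 and 0.934 to Rpl22+/+ replicates 1 and 3, which correlated at 0.992 with each other. Itgam, which encodes CD11b, was present at 1927 ± 137 CPM (SD, n = 3) in Rpl22+/+ and 948 ± 117 CPM in the Rpl22-/- libraries. Among antigens that Gr1 antibodies recognize, Ly6g was at 159 ± 16.2 CPM and 14.2 ± 2.64 CPM, and Ly6c2 was at 967 ± 274 CPM and 1379 ± 262 CPM and was not called. Of 7 myeloid markers, 3 were called lower (Itgam, Ly6g and Cd33) and 0 higher. Summed over 10 marker genes of monocytes, macrophages and dendritic cells, levels ran from 1020 to 1264 CPM in Rpl22+/+ and from 470 to 642 CPM in Rpl22-/-, and 4 of the 10 were called lower. For 6 erythroid markers the sums were 83.1 to 125 CPM and 570 to 1133 CPM, with 5 called higher. For 6 T cell markers they were 41.0 to 55.5 CPM and 15.6 to 18.0 CPM, with 5 called lower. For 5 B cell markers they were 567 to 721 CPM and 358 to 550 CPM, with none called and 1 (Pax5) at an edgeR adjusted p-value under 0.05. The part of these shifts in the results below was not tested. In bulk RNA, fewer cells of a type and less RNA per cell cannot be told apart.

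Of the 7 genes, 4 met the call rule, Angptl7 and Angptl4 as higher and Angptl2 and Pirb as lower in Rpl22-/-. For 6 genes, all but Lilrb4a, the values of the genotypes did not overlap. Since the genes were chosen on this contrast, nothing is read from these counts.

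**Figure D1:**
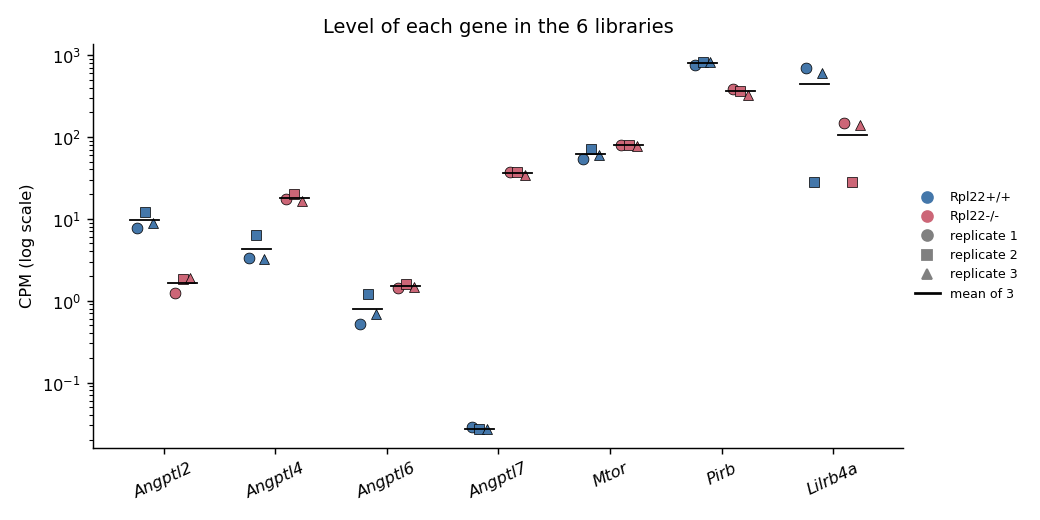
CPM of the 7 genes in each of the 6 libraries, on a log axis. Color gives the genotype, marker shape gives the replicate number and horizontal bars are the means of 3 libraries. Angptl7 lies near 0.03 CPM in Rpl22+/+ and near 36 CPM in Rpl22-/-, while the Lilrb4a values of both replicates numbered 2 lie far below those of the other libraries.

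Angptl7 was almost absent from the Rpl22+/+ libraries and abundant in the Rpl22-/- libraries. Angptl7 is a secreted glycoprotein best known from the cornea and the trabecular meshwork of the eye, and it has also been described as a factor that expands blood stem cells. The 3 Rpl22+/+ libraries held 2 estimated reads each, and the Rpl22-/- libraries held 1402, 3757 and 3608. This came to 0.028, 0.027 and 0.027 CPM against 37.5, 37.5 and 34.0 CPM, with no overlap and with a range of only 1.10 times within Rpl22-/-. Pooled over libraries, 8767 reads against 6 gave a ratio of 1315 after scaling for library size (95% exact counting interval 604 to 3584). The fitted log2 fold change of 10.29 ± 0.21 (SE) depends on the prior count that stands in for the near-empty group.

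Angptl7 (ENSMUSG00000028989) lies on the minus strand at chr4:148579640-148584917 (GRCm39), inside Mtor (ENSMUSG00000028991, plus strand, chr4:148533068-148642140). In the GENCODE vM21 annotation (build GRCm38), all 5 exons of its single transcript fall within intron 28 of the Mtor transcript with 58 exons, Mtor-202, an intron of 20.0 kb. The genes therefore run in opposite directions, and the counting is not stated to have used strand, so reads from unspliced Mtor RNA and from Angptl7 cannot be told apart by position alone. Of the 2127 different 31-base words in the Angptl7 transcript, 1.41% occur in a transcript of another gene, whereas Mtor shares none of its 10134 words with any other gene. The sequence from which Angptl7 starts is shown because this is the gene that differed most among the 7. It is the 250 bases before the RefSeq start of Angptl7, at chr4:148500463-148500712 on the minus strand (GRCm38.p6), with a motif match in capitals.

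Angptl7 upstream: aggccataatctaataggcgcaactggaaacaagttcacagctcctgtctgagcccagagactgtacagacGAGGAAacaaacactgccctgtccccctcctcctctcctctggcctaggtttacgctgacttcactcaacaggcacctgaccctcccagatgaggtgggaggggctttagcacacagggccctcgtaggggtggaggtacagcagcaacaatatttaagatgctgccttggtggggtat

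The RefSeq table held an upstream sequence for 5 of the 7 genes. Both strands were searched for 6 motifs, namely TATAAA (the TATA box), CCAAT (the CCAAT box), GGGCGG (the GC box of Sp1), CACGTG (the E box), GAGGAA (the core letters of sites for PU.1, a myeloid transcription factor) and TTGCNNAA (a form of the C/EBP site). In Angptl7 the only match was GAGGAA, 179 bases before the start, and 23.3% of the 32851 upstream sequences in the table hold that motif. The Mtor sequence holds CCAAT at 4 places, GGGCGG at 2 and GAGGAA at 1, and the shares of all upstream sequences with CCAAT and GGGCGG are 33.8% and 32.7%. Angptl2 holds GGGCGG at 2 places and Angptl6 holds none of the 6 motifs.

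Angptl4 was the other angiopoietin-like gene with a higher level in Rpl22-/-. It encodes an inhibitor of lipoprotein lipase that is induced by fasting, fatty acids and hypoxia, largely through PPAR receptors. The libraries measured 3.33, 6.32 and 3.27 CPM in Rpl22+/+ and 17.6, 20.3 and 16.4 CPM in Rpl22-/-. The lowest Rpl22-/- value was 2.60 times the highest Rpl22+/+ value, which came from replicate 2. The fold was 4.20 (log2 2.07 ± 0.30 SE, n = 3 in each group).

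Angptl2 differed in the opposite direction. It encodes a secreted proinflammatory factor and is a known ligand of Pirb. Its level was 7.80, 12.2 and 8.92 CPM in Rpl22+/+ and 1.26, 1.82 and 1.88 CPM in Rpl22-/-. Every Rpl22+/+ library was at least 4.15 times any Rpl22-/- library, and the mean was 5.80-fold lower in Rpl22-/- (log2 -2.54 ± 0.26 SE). Reads numbered 547.6 to 904.4 in the Rpl22+/+ libraries and 47.0 to 199.1 in the Rpl22-/- libraries. Stromal cells, which the CD11b+Gr1+ gate would remove, are a known source of Angptl2, and of 8 stroma markers, with summed levels of at most 5.62 CPM in the Rpl22+/+ libraries and 2.46 to 4.47 CPM in the Rpl22-/- libraries, only 3 passed the filter on low counts. Of these, Pdgfrb was called lower (edgeR adjusted p = 0.00098), with 257 reads over the Rpl22+/+ libraries and none in Rpl22-/-. That holds for its matched transcripts only, as its base mean here was 0.39 times the authors' base mean. Col1a1 (3.95 ± 0.280 and 2.81 ± 1.10 CPM) and Cxcl12 (0.114 ± 0.0524 and 0.194 ± 0.0756 CPM) were not called, and Pdgfra, below the filter, had 2 reads and 23. The part of such cells was not tested.

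Angptl6, a circulating factor linked to energy expenditure and vessel growth, rested on 36.0 to 160 reads in a library. It had 0.513, 1.20 and 0.681 CPM in Rpl22+/+ and 1.44, 1.60 and 1.48 CPM in Rpl22-/-. The groups were apart by 1.20 times, with replicate 2 the highest Rpl22+/+ library, and the log2 difference of 0.92 ± 0.36 (SE) did not reach the call rule. Without Rpl22+/+ replicate 2 the difference was 1.29 and met the rule. Of its 31-base words, 15.2% also occur in A230050P20Rik, so its reads are in part uncertain.

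Pirb had the highest mean level of the 7 genes in both genotypes, and its level in Rpl22-/- was lower by a factor of 2.22. The libraries measured 764, 812 and 814 CPM in Rpl22+/+ and 387, 362 and 328 CPM in Rpl22-/-. The groups were apart by 1.98 times, within a range of 1.06 times among the Rpl22+/+ libraries and 1.18 times among the Rpl22-/- libraries. The log2 fold change was -1.15 ± 0.14 (SE).

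Lilrb4a could not be described by a group mean. It measured 687 and 604 CPM in Rpl22+/+ replicates 1 and 3 and 148 and 139 CPM in Rpl22-/- replicates 1 and 3, whereas both libraries numbered 2 were low, with 28.0 CPM for Rpl22+/+ and 28.3 CPM for Rpl22-/-. The genotypes thus overlapped, with a range of 24.5 times within Rpl22+/+ and 5.24 times within Rpl22-/-. The fitted log2 difference of -2.07 ± 1.09 (SE) was not called, and without Rpl22+/+ replicate 2 it was -2.69 and was called. That was the largest difference of the 15 alternatives, and the smallest was -1.32 with log2(TPM + 1). With the replicate block it was -1.48, and in neither of these fits was Lilrb4a called. The neighboring Lilrb4b, which encodes a closely related receptor without ITIM motifs, had the same pattern, with 524, 30.4 and 517 CPM for Rpl22+/+ and 69.0, 17.2 and 65.1 CPM for Rpl22-/-. It was not called either (log2 -2.83 ± 1.03, edgeR adjusted p = 0.0867). It was called with the replicate block (log2 -2.28, edgeR adjusted p = 0.0151), with the DESeq2 test (log2 -2.90, DESeq2 adjusted p = 0.0356) and without Rpl22+/+ replicate 2 (log2 -3.43, edgeR adjusted p = 0.00342).

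Reads of these receptor genes are hard to place, because 56.1% of the 31-base words of Lilrb4a and 44.1% of those of Pirb occur in transcripts of other genes. For Lilrb4a the genes with the largest shares were Lilrb4b (39.1%) and the predicted gene Gm49339 (35.0%). For Pirb the largest shares, 23.1% to 23.7% each, were with Pira12, Lilra6 and Pira2. The values of each single gene are therefore uncertain, and sums over relatives were formed after seeing the data. Lilrb4a, Lilrb4b and Gm49339 together gave 1394, 110 and 1299 CPM in Rpl22+/+ and 247, 56.8 and 226 CPM in Rpl22-/-. The libraries numbered 2 thus remained the lowest of each genotype, and the groups still overlapped. For Gm49339 alone they did not overlap, at 183, 51.2 and 177 CPM in Rpl22+/+ and 29.4, 11.3 and 22.8 CPM in Rpl22-/-, a ratio of 6.49. Pirb with its 5 activating relatives Pira1, Pira2, Pira12, Pira13 and Lilra6 gave 1352, 1485 and 1449 CPM against 466, 454 and 411 CPM, with no overlap and a ratio of 3.22. Without Pirb, the 5 relatives alone gave 588 to 673 CPM against 79.1 to 92.4 CPM, a ratio of 7.43.

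**Figure D2:**
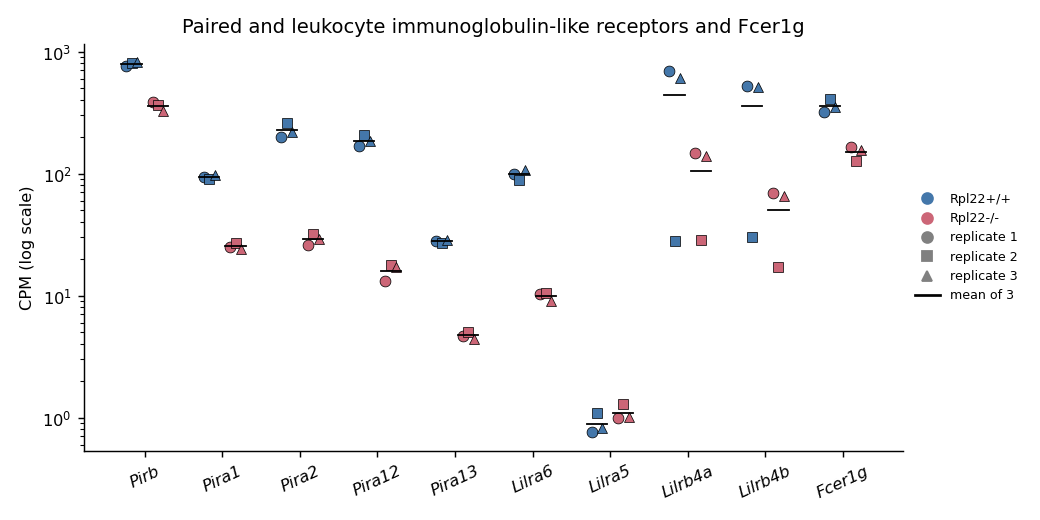
CPM of Pirb, its relatives, Lilrb4a, Lilrb4b and the adaptor gene Fcer1g in each of the 6 libraries, on a log axis, with bars at the means of 3. Pirb, the Pira genes and Lilra6 are lower in every Rpl22-/- library, Lilra5 overlaps between genotypes, and Lilrb4a and Lilrb4b share low values in both libraries numbered 2.

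The sequences before the start of Pirb and of Pira1 are shown because these genes, which encode an inhibitory and an activating receptor, were both lower in Rpl22-/- and have nearly the same upstream sequence. Both are from RefSeq (GRCm38.p6, minus strand), Pirb at chr7:3720383-3720632 and Pira1 at chr7:3739918-3740167, with matches to GAGGAA, or to its complement on the other strand, in capitals.

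Pirb upstream: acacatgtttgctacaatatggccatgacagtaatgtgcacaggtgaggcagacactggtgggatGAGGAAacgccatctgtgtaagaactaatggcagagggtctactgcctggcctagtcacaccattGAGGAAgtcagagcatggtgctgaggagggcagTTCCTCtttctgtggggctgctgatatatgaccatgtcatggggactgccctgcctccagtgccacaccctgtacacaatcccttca
Pira1 upstream: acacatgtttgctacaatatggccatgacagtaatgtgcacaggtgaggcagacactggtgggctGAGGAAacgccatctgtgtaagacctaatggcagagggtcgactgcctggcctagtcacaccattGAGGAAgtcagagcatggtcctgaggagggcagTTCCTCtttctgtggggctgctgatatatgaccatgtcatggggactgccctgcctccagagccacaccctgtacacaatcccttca

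Of the 250 bases, 245 (98%) are identical between the pair. The upstream sequences of Pira2 and Lilra6 align to that of Pirb over 222 and 220 bases, with 97.7% and 96.4% identical. Each of the 4 sequences holds GAGGAA at 3 places and none of the other 5 motifs. This describes the letters and not binding by any factor.

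Mtor, the host gene of Angptl7, differed little. Its level was 54.2, 71.7 and 59.7 CPM in Rpl22+/+ and 80.6, 80.6 and 78.4 CPM in Rpl22-/-. The Rpl22-/- values lay above the highest Rpl22+/+ value by 1.09 times, and the log2 fold change was 0.37 ± 0.14 (SE), beside a median of 0.07 over all tested genes and of 0.44 over the 832 tested genes of chromosome 4. It was not called. In the same libraries Angptl7, within its intron, differed by a ratio of 1315.

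Levels per transcript length ranked the 7 genes differently in the 2 genotypes. In Rpl22+/+ the order by mean TPM was Pirb (351 ± 41.1, SD, n = 3), Lilrb4a (295 ± 242), Mtor (11.4 ± 0.382), Angptl2 (3.58 ± 0.334), Angptl4 (2.68 ± 0.660), Angptl6 (0.655 ± 0.196) and Angptl7 (0.017 ± 0.0026). In that order the ranges of Pirb and Lilrb4a overlapped, as did those of Angptl2 and Angptl4, and all other neighbors were apart. In Rpl22-/- the order was Pirb (167 ± 19.1), Lilrb4a (77.4 ± 51.5), Angptl7 (23.4 ± 2.03), Mtor (14.7 ± 1.09), Angptl4 (12.7 ± 0.883), Angptl6 (1.37 ± 0.028) and Angptl2 (0.659 ± 0.112). There only Lilrb4a and Angptl7 overlapped. Angptl7 thus moved from the lowest of the 7 to the highest of the 4 ligand genes, above Mtor in every Rpl22-/- library, and Angptl2 moved from the highest ligand gene by mean to the lowest.

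Isoforms were described by the share of each annotated transcript in the TPM of its gene. Angptl7 and Angptl6 have a single matched transcript. Angptl2 was carried by the coding transcript Angptl2-201 at 96.9% ± 1.61 in Rpl22+/+ and 92.8% ± 3.06 in Rpl22-/-. Mtor was carried by its full-length transcript Mtor-202 at 74.1% ± 0.637 and 81.4% ± 5.11, and the short coding transcript Mtor-201 held 17.4% ± 5.55 and 9.17% ± 3.54. Their ranges overlapped neither for Mtor-202, at 73.4% to 74.7% against 76.2% to 86.4%, nor for Mtor-201, at 12.5% to 23.4% against 5.13% to 11.7%. As a share of estimated reads, which are not scaled for length, Mtor-202 held 96.8% and 98.0%.

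For the remaining genes most of the signal was assigned to transcripts that the annotation does not class as coding. Angptl4 was dominated by Angptl4-202, annotated as a target of nonsense-mediated decay, at 85.3% ± 4.34 and 85.9% ± 3.43, and the coding Angptl4-201 held 13.3% ± 1.98 and 11.4% ± 1.41. Its coding TPM was nevertheless higher in Rpl22-/-, at 1.45 ± 0.237 against 0.365 ± 0.148. Pirb was mostly Pirb-202, annotated as a retained intron, at 53.4% ± 1.61 and 53.8% ± 1.09, and the coding Pirb-201 held 6.22% ± 0.286 and 4.82% ± 0.785. Coding Pirb stood at 21.9 ± 3.47 TPM in Rpl22+/+ and 8.14 ± 2.28 TPM in Rpl22-/-. Lilrb4a had 14 transcripts, 11 of them with reads, and its coding transcripts held at most 1.49% in any library. Lilrb4a-205, annotated as a target of nonsense-mediated decay, held 51.0% in Rpl22+/+ replicate 2 and 8.55% in Rpl22-/- replicate 2, against at most 0.607% in the other 4 libraries. Shares of isoforms that overlap in sequence are estimates of the quantifier and not direct counts.

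**Figure D3:**
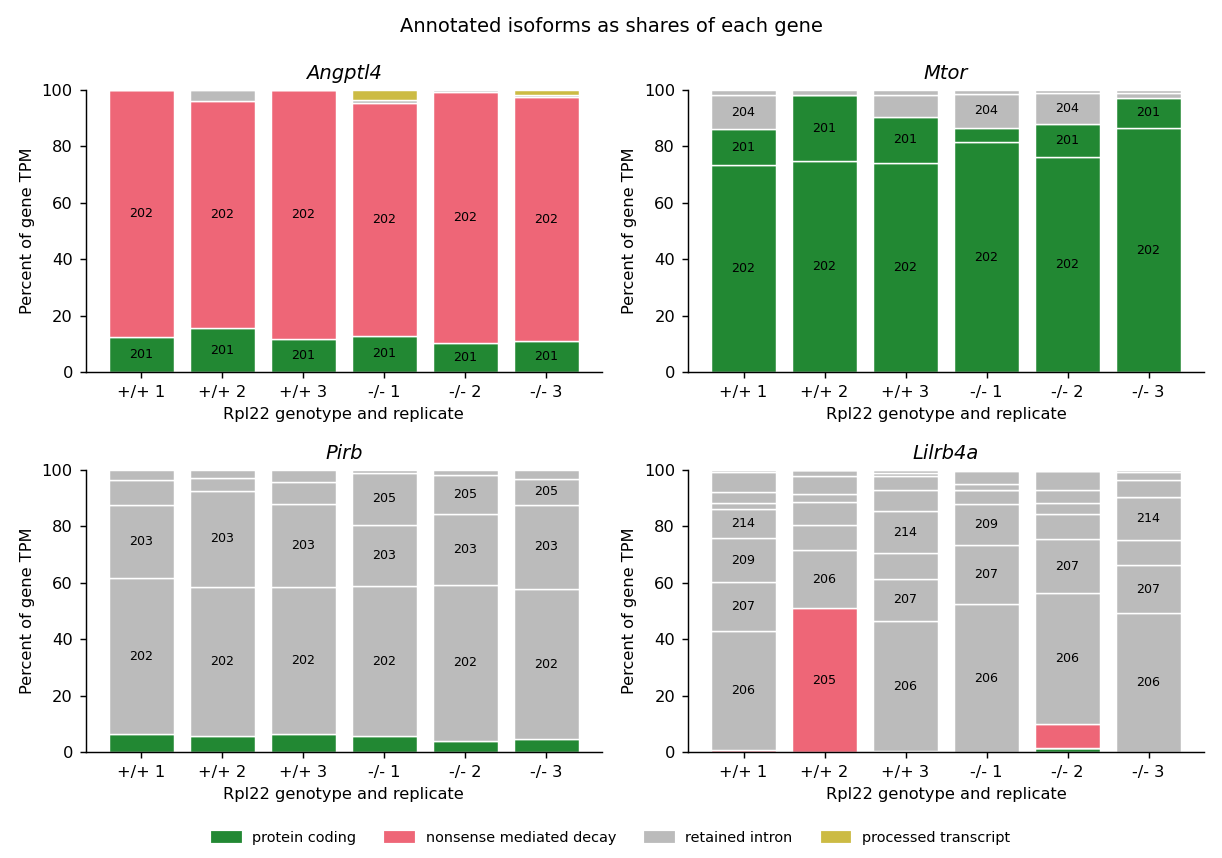
Stacked bars of the share of each annotated transcript in the TPM of Angptl4, Mtor, Pirb and Lilrb4a, in percent, for each of the 6 libraries, colored by annotated class and labelled with the transcript number where the share exceeds 9%. Angptl4-202 and Pirb-202 lead in all libraries, and Lilrb4a-205 appears as a large share in Rpl22+/+ replicate 2.

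The genes that work with these 7 were examined through 13 lists, which held 105 names, 99 of them matched and 92 tested. Of the 92, 20 (21.7%) were called, 6 higher and 14 lower in Rpl22-/-, beside the 17.5% over all genes.

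Among the other angiopoietin-like genes, Angptl8, which takes part in the control of lipoprotein lipase, rose from 1.12 ± 0.347 to 3.84 ± 0.457 CPM (log2 1.77 ± 0.29 SE, edgeR adjusted p = 0.00521). Angptl1 had no reads. Of the lipases and their partners, Lipg, an endothelial lipase, rose from 14.5 ± 2.51 to 92.6 ± 9.91 CPM (log2 2.68 ± 0.18, edgeR adjusted p = 0.000186). Lipc, hepatic lipase, fell from 9.46 ± 2.17 to 4.11 ± 1.23 CPM (log2 -1.20 ± 0.29, edgeR adjusted p = 0.0232), a call lost without Rpl22+/+ replicate 1, Rpl22-/- replicate 1 or Rpl22-/- replicate 3 (adjusted p of 0.0576 to 0.0756). Lpl was not called, at 8.14 ± 1.69 and 10.5 ± 1.41 CPM.

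Among the angiopoietins and their Tie receptors, Tie1 rose from 0.376 ± 0.106 to 68.4 ± 6.22 CPM (log2 7.50 ± 0.26, edgeR adjusted p = 2.54e-05). Tie1 encodes a receptor tyrosine kinase of endothelium and some blood progenitors. The endothelial marker list, which holds Tie1, summed to 57.2 to 69.5 CPM in Rpl22+/+ and 157 to 171 CPM in Rpl22-/-, with 3 of 6 tested called higher, the others being Vwf (1.11 ± 0.13 and 9.26 ± 0.331 CPM) and Kdr (0.151 ± 0.0270 and 0.344 ± 0.0439 CPM). The Kdr call (edgeR adjusted p = 0.0471) was lost with the replicate block (edgeR adjusted p = 0.0754). Pecam1 (59.1 ± 6.23 and 83.5 ± 10.7 CPM) and Cdh5 (0.739 ± 0.123 and 0.467 ± 0.149 CPM) were not called. Tek, the receptor of the angiopoietins, and Angpt4 were below the filter. Angpt1 was not called (1.60 ± 1.16 and 4.61 ± 1.05 CPM, edgeR adjusted p = 0.158), but was with the replicate block (log2 1.89, adjusted p = 0.0422). Of the 4 integrin chains that bind angiopoietin-like proteins, Itgb3 fell from 51.5 ± 7.50 to 10.7 ± 0.458 CPM (log2 -2.26 ± 0.15, edgeR adjusted p = 0.000188) and the other 3 were not called.

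The list of relatives of the 2 receptors, which also holds the adaptor gene Fcer1g, had the most calls, 6 lower and 0 higher of 8 tested (14 names, 8 matched), with a median log2 fold change of -2.69. Without Fcer1g, 5 of 7 receptor genes were called lower (median -2.83). Pira12 fell from 186 ± 18.9 to 16.0 ± 2.54 CPM (log2 -3.54 ± 0.18) and Lilra6 from 98.5 ± 9.12 to 9.93 ± 0.769 CPM (log2 -3.31 ± 0.15). Since the 5 share sequence with Pirb and each other, their calls are not independent. The sixth call was Fcer1g, the adaptor through which the activating receptors signal and which does not resemble them, fell from 361 ± 45.2 to 150 ± 19.3 CPM (log2 -1.27 ± 0.17, edgeR adjusted p = 0.00227). Of 13 other inhibitory receptors of myeloid cells, 4 were called lower and 1 higher (median -0.85). Siglece fell from 93.5 ± 12.6 to 14.3 ± 2.68 CPM, Cd33 fell from 419 ± 112 to 152 ± 85.6 CPM, and Clec12a rose from 347 ± 43.2 to 768 ± 125 CPM. The Cd33 call (edgeR adjusted p = 0.0399) was lost when any of 4 single libraries was left out, Rpl22+/+ replicates 1 and 3 or Rpl22-/- replicates 2 and 3. The Clec12a call was lost without Rpl22+/+ replicate 2, where its log2 fold change of 1.14 became 1.00. Downstream of the ITIMs, none of 7 kinases and phosphatases was called, although 3 had an edgeR adjusted p-value under 0.05 (27.6% of all genes did). Ptpn6, which encodes SHP-1, measured 733 ± 165 and 490 ± 41.1 CPM. Among 8 other ligands of these receptors, Apoe rose from 24.6 ± 6.86 to 55.4 ± 14.9 CPM and Fn1 fell from 1133 ± 402 to 230 ± 86.8 CPM. The Apoe call (edgeR adjusted p = 0.0210) was lost when any of 4 libraries was left out, Rpl22+/+ replicates 1 and 3 or Rpl22-/- replicates 2 and 3.

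The mTOR pathway showed few calls. Of 11 subunits and assembly factors of mTORC1 and mTORC2, only Deptor, an inhibitory subunit, was called, falling from 17.2 ± 2.65 to 6.61 ± 0.655 CPM (log2 -1.38 ± 0.18, edgeR adjusted p = 0.00208). An edgeR adjusted p-value under 0.05 at any fold was reached by 5 of the 11 (45.5%, beside 27.6% over all genes). Besides Deptor these were Mlst8 (93.7 ± 15.1 and 49.5 ± 3.69 CPM, log2 -0.92), Akt1s1 (21.0 ± 5.88 and 41.0 ± 4.0 CPM, log2 0.97), Telo2 (14.2 ± 2.31 and 26.4 ± 2.03 CPM, log2 0.89) and Prr5l (3.52 ± 0.783 and 6.47 ± 0.750 CPM, log2 0.88). Rptor, which defines mTORC1, measured 42.5 ± 11.3 and 46.5 ± 2.81 CPM, and Rictor, which defines mTORC2, 43.9 ± 31.3 and 35.2 ± 12.3 CPM. None of 14 upstream regulators was called, and none had an edgeR adjusted p-value under 0.05, with a median log2 fold change of -0.08. None of 8 substrates and effectors was called, with 2 under 0.05 at a smaller fold and a median of -0.16. Of these, Eif4ebp2, a repressor of translation initiation (364 ± 95.3 and 189 ± 6.06 CPM, log2 -0.94), met the call rule without Rpl22+/+ replicate 1 or 3 (log2 -1.08 and -1.03).

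The genes known to act on Angptl4, and other targets of the PPAR receptors, held no called gene. Of 5 tested regulators, only Rxra, the partner receptor of the PPARs, had an edgeR adjusted p-value under 0.05 (55.0 ± 15.1 and 27.9 ± 2.92 CPM, log2 -0.98, adjusted p = 0.0168). It met the call rule without Rpl22+/+ replicate 1, Rpl22+/+ replicate 3 or Rpl22-/- replicate 2 (log2 -1.12, -1.06 and -1.03). Ppard was at 41.3 ± 7.13 and 50.3 ± 2.25 CPM and Hif1a at 92.5 ± 17.3 and 87.8 ± 1.01 CPM, and the median log2 fold change was -0.48. Ppara was below the filter. The 5 tested PPAR targets, among them Cpt1a (239 ± 47.6 and 247 ± 9.80 CPM) and Plin2 (218 ± 49.9 and 196 ± 15.0 CPM), had a median of -0.08, and none had an edgeR adjusted p-value under 0.05.

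**Figure D4:**
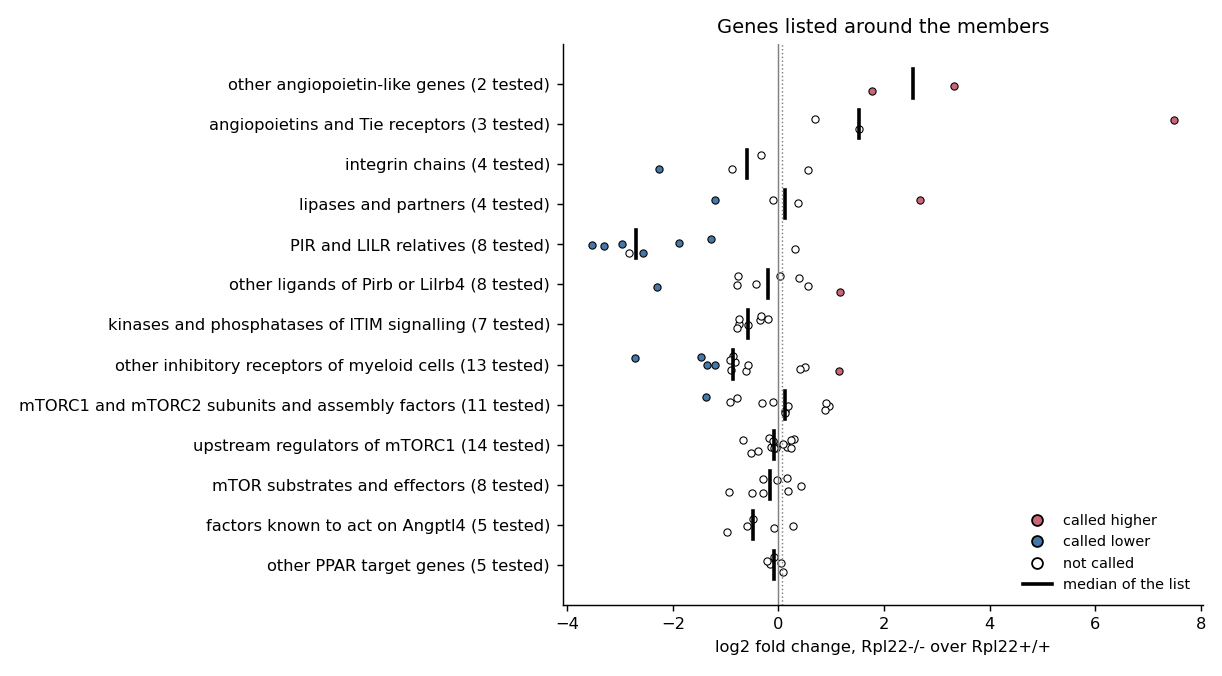
log2 fold change of each tested gene in the 13 lists, 1 point per gene, filled where called, with a bar at the median of the list, a solid line at 0 and a dotted line at the median of all tested genes (0.07). The receptor relatives with Fcer1g lie lowest, with a median of -2.69, and the mTOR and PPAR lists center near or somewhat below 0.

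The surroundings of Angptl7 were examined because it lies on the chromosome of Rpl22, 3.83 Mb away. Within 500 kb of Angptl7, 13 genes other than Mtor were tested, 4 were called (3 higher and 1 lower), and 11 had a log2 fold change above 0, compared with 54.2% of all genes. Their median was 0.59, beside 0.44 over the tested genes of chromosome 4. Masp2, a complement protease gene, had 1, 0 and 3 reads in Rpl22+/+ and 144, 164 and 240 in Rpl22-/- (pooled ratio 123, 95% exact counting interval 47.9 to 454, edgeR adjusted p = 0.00118). Srm, spermidine synthase, rose from 40.0 ± 13.9 to 84.8 ± 7.88 CPM (edgeR adjusted p = 0.0194), a call lost without Rpl22+/+ replicate 1 or 3 or Rpl22-/- replicate 1 or 3. Casz1, a zinc finger factor gene, fell from 38.0 ± 4.48 to 14.2 ± 2.79 CPM (log2 -1.42 ± 0.19, edgeR adjusted p = 0.00227). Within 1000 kb, 8 of 31 genes were called, 7 of them higher. Over chromosome 4, 23.1% of 832 genes were called. The chromosomal background that came with the Rpl22 deletion and the effect of Rpl22 loss cannot be told apart.

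**Figure D5:**
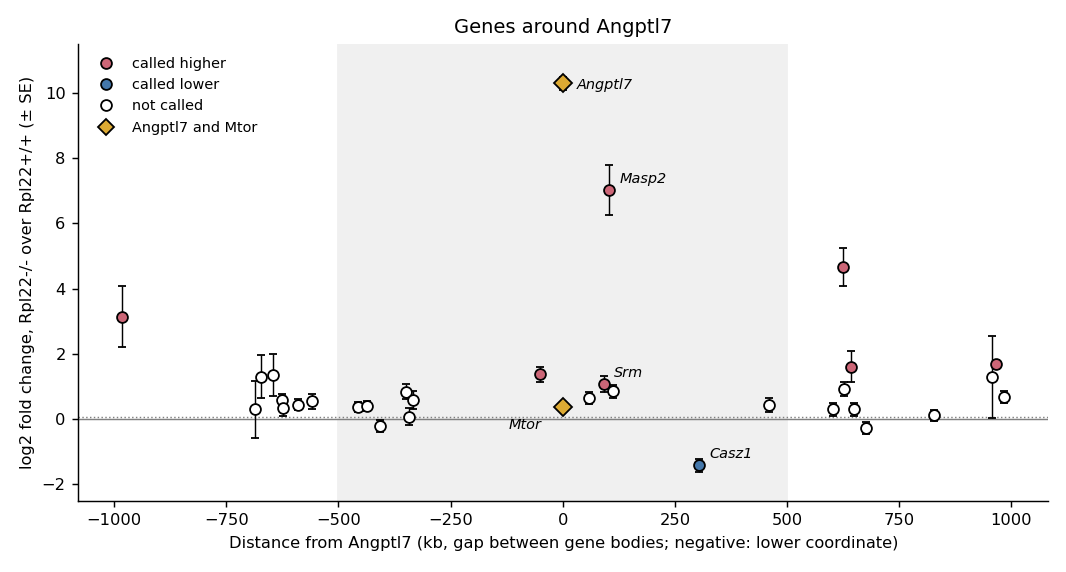
log2 fold change ± SE of the tested genes within 1000 kb of Angptl7, by distance between gene bodies in kb (shaded: 500 kb), with a dotted line at the median of all genes. Angptl7 stands at 10.29, Mtor at 0.37 and Masp2 is the highest of the others, and the fitted values of Angptl7 and Masp2 depend on the prior count.

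The genes whose levels followed each of the 7 most closely were found by Pearson's r of log2 CPM over the 6 libraries, among 11583 genes. With 2 groups of 3, most such values are set by the difference between genotypes, and 358 to 1879 genes had r above 0.9 with any given member. For Angptl7 the closest were Ccdc85a (r = 1.000), Tdrd9 and Dnajc6, all far lower in Rpl22+/+ than in Rpl22-/-, as with Tdrd9 at 0.566 and 41.2 CPM. For Angptl4 they were Cmtm7 (r = 0.999), Ctps1 and Fdps, and for Angptl2 Rap2a (r = 0.999), Stn1 and Sh2d1b1. Pirb was followed by Soat1 (r = 1.000), Adam8 and Amotl1, all lower in Rpl22-/-. Angptl6 was followed by Pyurf (r = 0.997), Pdf and Ccdc12, and Mtor by Surf6 (r = 0.997) and Pdf. Lilrb4a had the fewest genes above 0.9, 358, led by Stk38l (r = 0.995), Tmem170b and Cplane1, and its values rest on the low level in both libraries numbered 2.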

How the data were processed

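Poly(A) RNA of 6 libraries, 3 per genotype, was prepared with a stranded kit and sequenced as paired ends. Per the submitters' processing notes and the study's methods, the authors used Trimmomatic for trimming and Salmon for transcript quantification; versions, the transcript set and the strand setting are not given in the sources used here, and the notes name GRCm39. The authors deposited estimated counts and TPM per transcript and library. The authors also deposited the output of DESeq2: a base mean signal, log2 fold changes and errors, a Wald score, p-values, and a column of −log10 values. Of it, only positions, gene names and the base mean were used; base means computed here were 0.966 to 1.06 times the authors' for the 7 genes.

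Transcripts were paired with genes through GENCODE vM21 identifiers without versions (136036 of 276623 transcripts, carrying 98.0% to 98.1% of reads), and estimated counts were summed and rounded. The comparison used glmQLFit and glmQLFTest in edgeR 4.0.16 (quasi-likelihood, R 4.3.3, TMM factors, filterByExpr, genotype as the only term) over all 16656 genes, tested on simulated data. Each SE was derived from the fold change and its F value. Groups follow the sample titles. The 7 genes and all lists were chosen with earlier results of these data known. Genes named are the 7, Rpl22, the called genes of each list (at most 2 per direction), called genes within 500 kb of Angptl7 (at most 4) and the 3 genes most like each of the 7 (mean of at least 50 counts, no predicted gene or pseudogene); others named were chosen after their values were seen. Values of a few genes within the rule are left out here. Alternatives were DESeq2 1.42.0 (size factors or test), no composition factor, no filter, limma 3.58.1 (voom, log2(TPM + 1), log2(TPM + 0.1)), a length offset, the replicate block and each library left out. Upstream sequences are from RefSeq (GRCm38.p6). Figures were drawn with matplotlib 3.10.9.

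The replicate numbers come from the sample titles. Over 13202 genes, deviations from the group means correlated at 0.57, 0.715 and 0.129 between libraries of the same number. Rpl22+/+ replicate 3 correlated more with Rpl22-/- replicate 1 (0.43), so whether the numbers mark pairs is uncertain. They were used as pairs only in the replicate block, which is an alternative, and the main fit did not use them.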

Additional observations from a re-analysis of the deposited data

How the results depend on the processing

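The direction of all 7 genes was the same in each of 15 alternatives. Whether they met the call rule differed only for Angptl6, which met it without a composition factor (log2 1.08) and without Rpl22+/+ replicate 2 (1.29), and for Lilrb4a, which met it without Rpl22+/+ replicate 2 (-2.69). The log2 fold change of Angptl7 ran from 4.58 with log2(TPM + 1) to 10.42 without a composition factor, that of Angptl2 from -2.68 without Rpl22+/+ replicate 1 to -1.47 with log2(TPM + 1), that of Pirb from -1.20 to -1.02 and that of Mtor from 0.27 to 0.51. Over all genes, 2911 calls became 1605 with log2(TPM + 1), and the median log2 fold change moved from 0.07 to 0.19 without a composition factor. Leaving out single libraries gave 2218 to 3431 calls over all genes, 15 to 23 of the listed genes (20 with all libraries) and 3 to 5 of those within 500 kb of Angptl7 (4), for which all alternatives but the window were added after seeing the data. Widening the window to 1000 kb gave 8. With the replicate block, 3179 genes over all, 22 listed genes and 4 near Angptl7 were called, and beside Lilrb4b, Angpt1 and Kdr it changed no other call of a gene named here. Depth limits Angptl7 (6 reads) and Masp2 (4 reads) in Rpl22+/+. Of the mTOR complex genes that were not called, Akt1s1 was called in 7 of the 15 alternatives, Telo2 in 4 and Prr5l in 2.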
